A study of Arabidopsis thaliana with 24 samples.

Results

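The genes described here had higher transcript levels in roots of the Arabidopsis thaliana double mutant nlp6nlp7 than the mean of the other genotypes. Those were the reference line and both single mutants, and the difference held before nitrate was given as well as 35 min after it. These genes were chosen from the measured values. Probe sets naming 1 gene were taken where the group mean of log2(intensity + 26) in nlp6nlp7 was at least 0.5 above the mean of the Col-0, nlp6 and nlp7 group means at 0 min and again at 35 min, and where the mean intensity over the 6 nlp6nlp7 arrays was at least 100. Loci from AT1G20910 to AT1G27530 and genes with symbols starting with UGT were set apart by that rule. It found 106 probe sets, which stand for 105 genes because AT5G44820 has a pair of them, among 22714 probe sets tested. Of the 13132 probe sets that the gene name and the 2 exceptions let through, 7386 reached the intensity minimum, and the 106 are 1.44% of those.

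NIN-like transcription factors, of which NLP6 and NLP7 are members, carry nitrate signals to genes. In background knowledge of Arabidopsis, NLP7 is held in the nucleus when nitrate arrives and binds nitrate-responsive regulatory sequence in many genes of nitrate uptake, reduction and signalling, and NLP6 and NLP7 act in part on the same genes. Loss of an activator of this kind is best known for lowering the induction of its targets, while the genes described here are the ones found at a higher level when both factors are lost.

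Transcripts were measured on 24 Affymetrix ATH1 arrays, with 3 biological replicates in each of 8 groups. The groups were the reference line Col-0, plants mutant in nlp6, plants mutant in nlp7, and nlp6nlp7 plants mutant in both, each at 0 min and at 35 min. All seedlings had spent 9 days with 12.5 mM ammonium succinate as their nitrogen source, and the roots of the later groups were collected 35 min after 25 mM KNO3 at pH 5.5. A replicate held roots of about 200 seedlings from 3 boxes. The labels name no alleles, and each genotype stands for 1 line. Potassium alone was given to no group, so time, handling and potassium cannot be told apart from nitrate. In whole roots, fewer cells of a type and less RNA per cell cannot be told apart either.

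Values were intensities that the authors had scaled to 1 trimmed mean on every array, and array medians ranged from 163 to 196. NLP6 and NLP7 have no named probe set in the tables used here, so the mutated genes were not analysed by name. Of the listed markers of green shoot tissue, 5 were measured: RCA lay between 201 and 400 in the 24 arrays, PRK between 1 and 71, and the 3 light-harvesting genes LHCB4.1, LHCB4.2 and LHCB4.3 between 3 and 242. The root hair expansins EXPA7 and EXPA18 lay at 361 to 649 and at 369 to 1007. No marker of the endodermis, root cap, xylem, phloem or cell cycle carried a name here. The median difference of nlp6nlp7 from the other genotypes over the 5 shoot markers was -0.05 at 0 min and -0.07 at 35 min, and over the 2 root hair markers 0.16 and 0.29. Single markers moved more, with LHCB4.1 at -0.35 and -0.90, LHCB4.2 at -0.58 and -0.07, and EXPA18 at 0.33 and 0.62, beside EXPA7 at -0.02 and -0.04. Their part in the members' levels was not tested.

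The members were typically higher by less than a doubling in nlp6nlp7, and 2 of them, AT1G66860 and AT5G61290, by more than 3-fold at both times. The median difference from the mean of the other 3 genotypes was 0.71 on the log2(intensity + 26) scale at 0 min, or 1.63-fold, with a range from 0.50 to 2.57. At 35 min the median was 0.65, or 1.57-fold, with a range from 0.50 to 1.87. Over all probe sets tested the median difference was 0.03 and 0.02. A difference of 1 or more was reached by 19 members at 0 min, by 12 at 35 min and by 7 at both. The difference was the larger at 0 min in 68 members and at 35 min in 38. These values chose the members, and they describe them without a test.

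Expressed as intensities, the median over the members of the group means was 191 for Col-0, 172 for nlp6, 192 for nlp7 and 334 for nlp6nlp7 at 0 min. At 35 min the same medians were 215, 177, 211 and 333. The double mutant stood apart, as the rule requires. The medians of Col-0 and the single mutants lay closer to each other than to nlp6nlp7, with nlp6 the lowest at both times. It had the highest of the 4 group means at both times in 105 of the 106 members, and the exception was AT3G50200, where Col-0 at 35 min was higher by 0.06. The 3 nlp6nlp7 arrays lay above all 9 others in 74 members at 0 min, in 67 at 35 min and in 54 at both times, and over all probe sets tested 2.32% did so at both times. The rule used the same contrast, so nothing is read from that count.

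**Figure D1:**
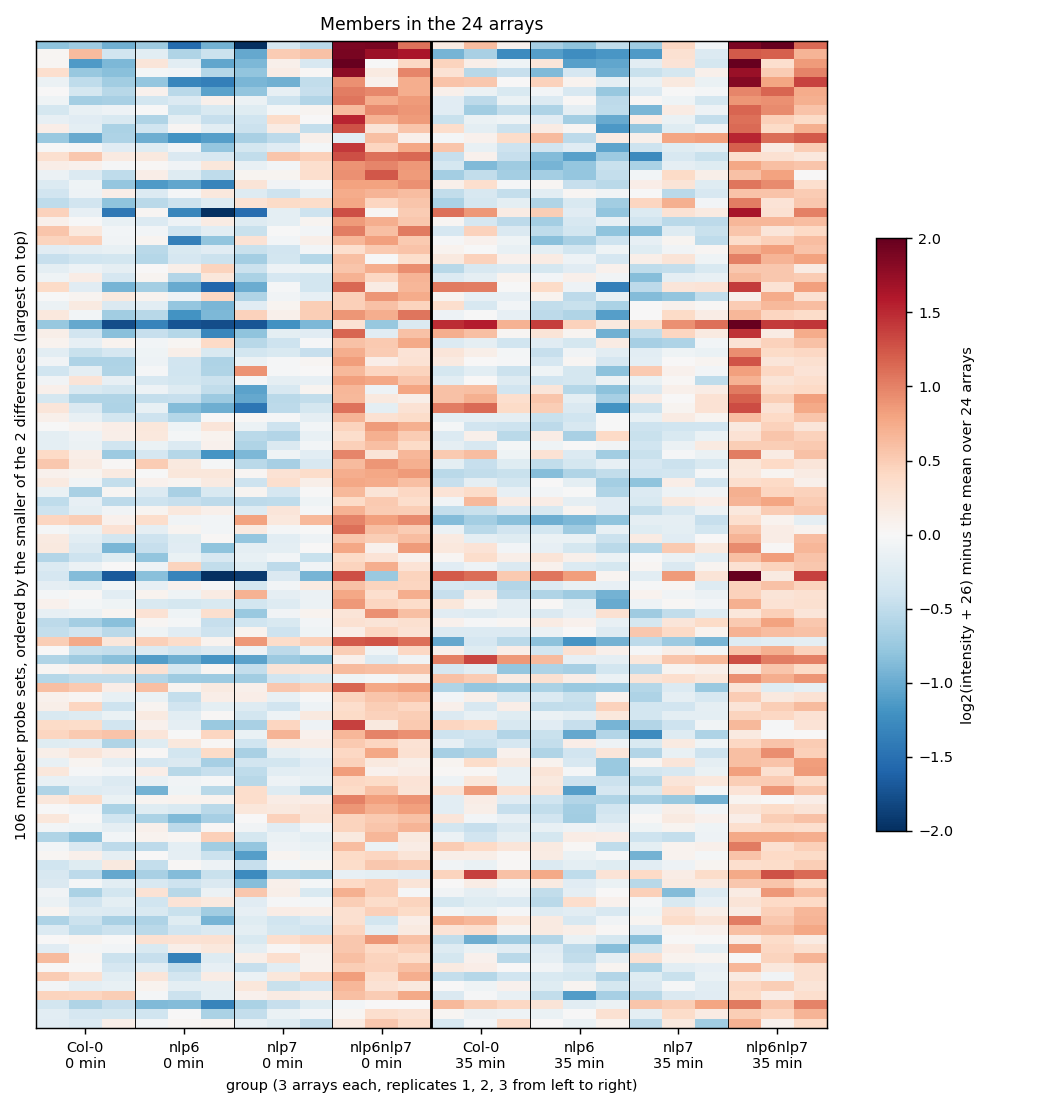
Level of each of the 106 member probe sets (one line each) in the 24 arrays (columns, grouped by genotype and time), as log2(intensity + 26) minus the member's mean over all arrays. The nlp6nlp7 columns are red at both times, and within them replicate 1 is the deepest for several members near the top.

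The member with the largest difference held at both times was AT1G66860. Its intensity at 0 min was 412, 418 and 226 in nlp6nlp7 and 4 to 68 in the 9 other arrays. At 35 min it was 413, 493 and 236 against 42 to 157. The groups did not overlap at either time, and the difference was 2.57 at 0 min and 1.87 at 35 min, so that the smaller of them was 3.66-fold. AT5G61290 came next, with differences of 1.84 and 1.87. It read 2058, 1818 and 1707 in nlp6nlp7 at 0 min, where the 9 other arrays ran from 251 to 841, and 1293, 1261 and 872 at 35 min, where they ran from 209 to 663. This gene was therefore bright in the double mutant at both times and was lower after nitrate in all 4 genotypes.

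In other members the arrays outside nlp6nlp7 were all below the array medians, and in AT4G12500 and AT5G38780 those of nlp6nlp7 were below them too. AT4G12500 gave 131, 98 and 109 in nlp6nlp7 at 0 min and 21 to 54 elsewhere, then 112, 115 and 97 at 35 min and 26 to 50 elsewhere. AT5G38780 gave 102, 134 and 127 against 35 to 60, then 159, 133 and 97 against 18 to 67. AT1G29660 gave 298, 284 and 238 against 50 to 143, then 287, 333 and 242 against 68 to 146. In these 3 genes every nlp6nlp7 array was above every other array of the same time, and nitrate moved none of them past the test described below.

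Others of the 12 members with the largest smaller difference were less even. AT1G59171 rose with nitrate as well, from 337, 178 and 292 at 0 min to 662, 305 and 464 at 35 min in nlp6nlp7, against 49 to 152 and 142 to 261 in the other arrays. AT3G61400 gave 721, 393 and 443 and then 532, 335 and 314, against 145 to 310 and 103 to 261. AT3G60470 gave 274, 123 and 158 and then 246, 136 and 177, against 54 to 113 and 30 to 133. In all 3 genes replicate 1 of nlp6nlp7 was the highest array at both times. AT5G57785 overlapped at 0 min, with 61, 127 and 82 in nlp6nlp7 against 18 to 82, and was separate at 35 min, with 265, 192 and 209 against 44 to 153. The remaining 3, AT4G19730, AT5G62330 and AT4G27850, overlapped with other arrays at 1 time or both and are described with the replicates. In 8 of the 12 the nlp6nlp7 arrays lay above all others at both times, beside 2.32% of all probe sets tested. These 12 were picked on that same contrast, so nothing is read from the count.

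**Figure D2:**
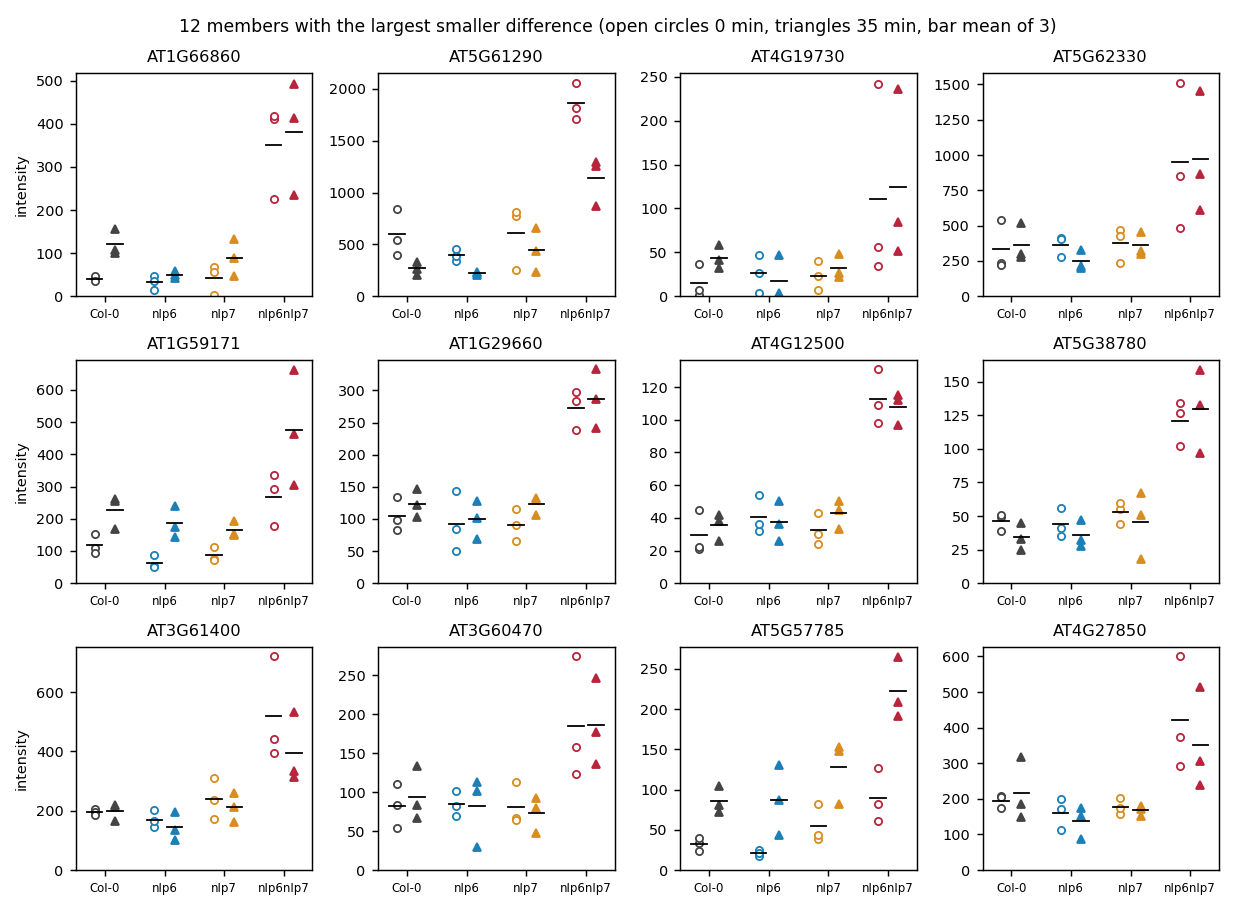
Intensity in every array for the 12 members with the largest smaller difference, by genotype (open circles 0 min, triangles 35 min, bars group means of 3 arrays). The nlp6nlp7 arrays stand above the rest, clearly so for AT1G66860 and AT5G61290, whereas AT4G19730 and AT5G62330 have 1 nlp6nlp7 replicate far above the others.

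Only 14 of the 106 members carry a gene name in the tables used here, 13 by symbol and AT2G26690 by its synonym NPF6.2, and the other 92 are known here by locus alone. The named members are of several kinds. In 8 of the 14 the 3 nlp6nlp7 arrays lay above all others at both times, beside 54 of all 106 members. Over all probe sets tested 2.32% did so, and as the rule used this contrast nothing is read from the count. Beta expansins loosen cell walls during growth, and 2 of them were members. EXPB1 (AT2G20750) read 718, 762 and 703 in nlp6nlp7 at 0 min against 334 to 479 in the 9 other arrays, and 659, 584 and 560 at 35 min against 185 to 328. Its difference, 0.85 and then 1.21, was the larger after nitrate, with a response of -0.27 in nlp6nlp7 and -0.72 in Col-0. EXPB3 (AT4G28250) gave 1723, 1952 and 1895 against 942 to 1520, then 1676, 1722 and 1873 against 1098 to 1378. Neither gene overlapped between nlp6nlp7 and the rest.

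The trichome birefringence-like family includes enzymes that add acetyl groups to wall polysaccharides. TBL21 (AT5G15890) gave 250, 270 and 284 in nlp6nlp7 against 119 to 196 at 0 min, and 261, 207 and 221 against 106 to 191 at 35 min. TBL41 (AT3G14850) gave 447, 583 and 500 against 222 to 404, then 426, 520 and 487 against 211 to 465. TBL21 was separate at both times, and TBL41 overlapped at 35 min with 1 nlp6 array.

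A pair of members encode transport proteins by name. SWEET11 (AT3G48740), a sucrose facilitator known for export of sucrose toward the phloem, read 2317, 2958 and 2407 in nlp6nlp7 at 0 min and 1283 to 2154 in the other arrays. At 35 min it read 1776, 2057 and 1785 against 797 to 1582, so the groups were separate at both times although all were lower after nitrate. NPF6.2 (AT2G26690) belongs to the NRT1/PTR family, which holds nitrate and peptide transporters. It was dim, with 207, 140 and 129 against 70 to 108 at 0 min and 135, 95 and 88 against 41 to 75 at 35 min, and its nlp6nlp7 arrays were the highest throughout.

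Stress and calcium signalling genes form another small group. STZ (AT1G27730, also ZAT10), a zinc finger repressor of transcription in salt, cold and drought responses, gave 1380, 1201 and 1268 in nlp6nlp7 at 0 min against 610 to 876. After nitrate it gave 701, 672 and 736 against 337 to 744, and a Col-0 array was the highest. The gene lies 28 places in gene order past the end of the chromosome 1 stretch that the rule set apart. CML23 (AT1G66400), a calmodulin-like calcium sensor, gave 387, 272 and 358 against 154 to 305, then 238, 195 and 266 against 129 to 187. SAL2 (AT5G64000), a relative of the phosphatase SAL1, gave 721, 545 and 565 against 321 to 485, then 373, 256 and 274 against 171 to 251. All 3 genes were lower at 35 min than at 0 min in every genotype, and only SAL2 was separate at both times.

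NET1A and NET1B encode Networked proteins, a plant family that binds actin filaments and links them to membranes. NET1B (AT4G14760) gave 448, 398 and 511 in nlp6nlp7 at 0 min against 86 to 336, and 379, 318 and 305 at 35 min against 93 to 309. NET1A (AT3G22790) gave 189, 215 and 200 against 81 to 165, then 168, 215 and 246 against 112 to 185. Both were separate at 0 min and overlapped with nlp7 arrays at 35 min, and both also differed between the single mutants, as described below.

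Serine carboxypeptidase-like proteins act as peptidases or as acyltransferases of secondary metabolism. The member scpl40 (AT3G63470) gave 311, 423 and 382 against 160 to 268, then 259, 317 and 267 against 147 to 220. The other, scpl16 (AT3G12220), gave 270, 158 and 286 against 66 to 171, then 305, 149 and 248 against 90 to 222. The first was separate at both times and the second at neither. 2A6 (AT1G03410) read 2176, 2237 and 2000 against 758 to 1787, then 2473, 2207 and 2180 against 854 to 1856, and in nlp7 its replicate 1 was the low value at both times.

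The mean intensity of the members in nlp6nlp7 ran from 110 to 4910 with a median of 333, where the probe sets that could have been taken had a median of 404. There were 23 members under 200 and 17 at 1000 or more. Intensities of different probe sets do not rank transcripts, so the 3 highest are given as examples of well-measured members. AT4G26010 gave 4816, 5083 and 5173 in nlp6nlp7 at 0 min against 2850 to 4227, and 5009, 4879 and 4501 at 35 min against 2834 to 4270. AT3G45710 fell after nitrate, from 4543, 5719 and 5415 to 3256, 2841 and 2870, against 2608 to 4600 and then 1177 to 2394. AT5G59490 did the opposite, going from 2257, 1091 and 1512 to 7447, 4912 and 5018, against 526 to 1085 and then 2116 to 5552. Membership thus held genes that nitrate raised and genes that it lowered.

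At the threshold the members merged into their surroundings. The smaller difference was 0.500 in AT5G24313, 0.502 in AT5G14020 and 0.502 in AT1G55430, the last ones inside. It was 0.497 in AT3G27950, 0.497 in AT2G07140 and 0.496 in AT5G54050, the first ones outside. A further 23 probe sets passed both differences and missed the intensity minimum.

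The differences were also measured in arrays that did not choose the genes, by applying the rule without 1 replicate number and reading the left-out arrays. Without replicate 1 the rule found 91 probe sets, of which 70 are members, and in the arrays of replicate 1 their median difference was 0.67 at 0 min and 0.70 at 35 min. Without replicate 2 it found 121, of which 92 are members, and their median in replicate 2 was 0.58 and 0.44. Without replicate 3 it found 109, of which 85 are members, and their median in replicate 3 was 0.60 and 0.58. In all 3 cases the median over the probe sets that could have been taken lay between -0.00 and 0.02. The left-out difference was above 0 in 88 of 91, 114 of 121 and 107 of 109 at 0 min, and in 89, 102 and 109 at 35 min. Both differences were again at least 0.5 in 49 (53.8%), 41 (33.9%) and 50 (45.9%) of them, against 1.88%, 1.53% and 1.56% of all that could have been taken. The direction therefore held in most genes, while the size at single replicates often fell short of the threshold.

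Replicates 1 and 2 of nlp6nlp7 differed for some members. Without both nlp6nlp7 arrays of replicate 1, 71 of the 106 kept both differences and 35 did not, and without those of replicate 2 or 3, 89 and 92 did. Leaving out both arrays of another genotype and replicate number left 91 to 102, except for replicate 1 of nlp7, which left 82. In 8 members, singled out after their values were seen, replicate 1 of nlp6nlp7 was at least 2-fold above replicate 2 at both times, and in 0 members was it the reverse. They were AT2G30670, AT3G50200, AT4G19730, AT4G27850, AT5G41280, AT5G52680, AT5G52710 and AT5G62330.

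In AT5G41280 the nlp6nlp7 arrays read 3438, 1297 and 2286 at 0 min and 4169, 1708 and 2570 at 35 min. Its Col-0 arrays read 1646, 1165 and 843, then 2532, 2310 and 1561. In nlp6 it gave 1096, 1020 and 600, then 1824, 1572 and 766, and in nlp7 855, 1319 and 1292, then 1069, 2048 and 1728. Replicate 1 was thus the highest in nlp6nlp7, Col-0 and nlp6 and the lowest in nlp7, at both times. AT5G62330 gave 1513, 481 and 849 in nlp6nlp7, then 1451, 610 and 864, and the 9 other arrays ran from 224 to 539 and from 201 to 520. AT4G19730 gave 242, 35 and 56, then 236, 52 and 85, against 2 to 47 and 3 to 58, so that only replicate 1 was far above the dim end. AT4G27850 gave 601, 291 and 375, then 513, 238 and 305, against 112 to 207 and 87 to 318.

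In all 8 genes replicate 1 was above replicate 3 at both times in Col-0 and in nlp6, and in 7 replicate 1 was the lowest of nlp7 at both times. In 7 of the 8, Col-0 replicate 1 at 0 min exceeded nlp6nlp7 replicate 2 at 0 min. Across all 106 members, the deviations of same-numbered arrays at 0 and 35 min from their group means correlated at 0.12 to 0.79 within a genotype, positive in the 12 pairs of arrays, and at -0.14 to 0.15 between genotypes. Over all probe sets tested the values within a genotype were -0.01 to 0.47. Over the probe sets that could have been taken at the intensity minimum they were -0.00 to 0.59. What the same-numbered samples share is not given in the labels, and its part in the differences was not tested.

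**Figure D3:**
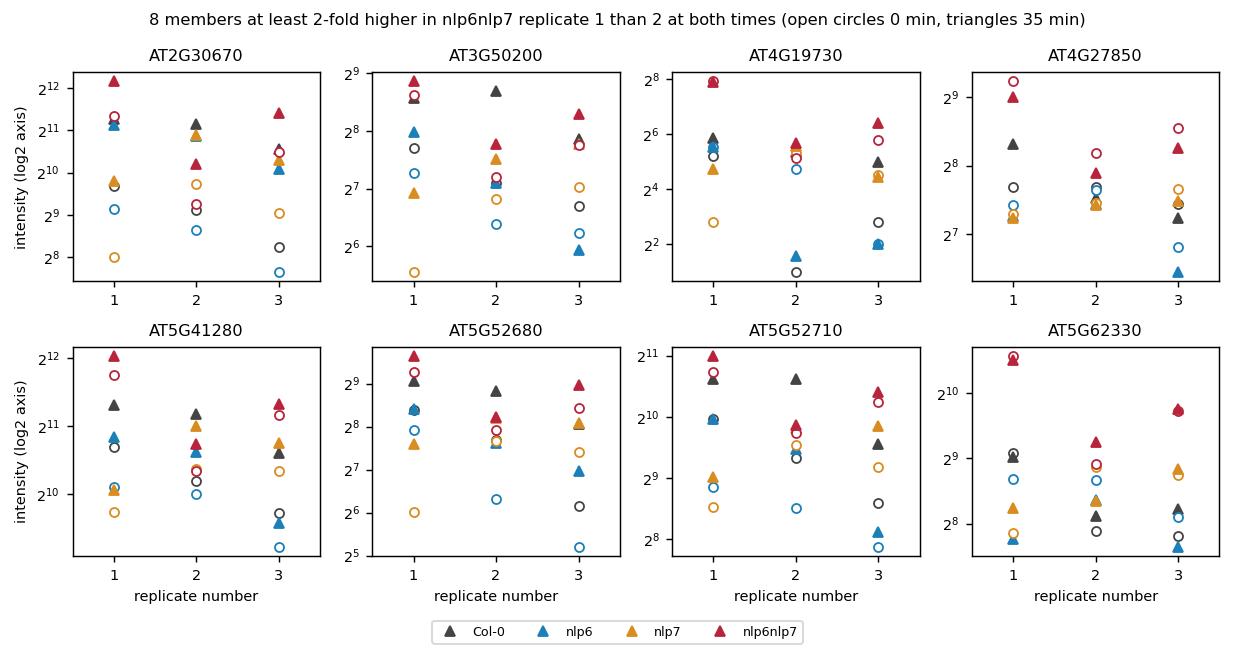
Intensity (log2 axis) against replicate number for the 8 members in which nlp6nlp7 replicate 1 was at least 2-fold above replicate 2 at both times, by genotype (open circles 0 min, triangles 35 min). Replicate 1 is above replicate 3 in Col-0 and in nlp6 for all 8, and is the lowest of nlp7 at both times in 7 of them.

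The members lay on all chromosomes, with 24 on chromosome 1, 7 on 2, 31 on 3, 15 on 4 and 29 on 5. As a share of the probe sets that could have been taken these are 1.37%, 0.632%, 2.00%, 1.34% and 1.59%. Members that neighbour each other within 5 places in gene order made 8 pairs among 13 genes. The number that a set of this size would give was not computed, so nothing is read from that count. On chromosome 3, AT3G45700, AT3G45710 and AT3G45720 had differences of 0.73, 0.54 and 0.75 at 0 min and of 0.72, 0.68 and 0.58 at 35 min. AT3G45700 read 923, 1231 and 1111 in nlp6nlp7 at 0 min against 423 to 882, and AT3G45720 read 368, 264 and 251 against 141 to 202. The rule asked for 0.5 at both times, so nothing is read from the similar size of these differences. Measured genes beside them were lower, with AT3G45680 at -0.22 and -0.10 and AT3G45690 at 0.30 and 0.02. On the other side AT3G45730 had -0.03 and -0.18 and AT3G45740 had 0.13 and 0.03. AT3G45700 and AT3G45720 were separate from the other arrays at both times.

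A second chromosome 3 group was AT3G50130, AT3G50140 and AT3G50150, with AT3G50200 further along. The measured genes between AT3G50150 and AT3G50200 were not members. Their differences were -0.25 and -0.08 in AT3G50160, 0.56 and 0.42 in AT3G50170, 0.37 and 0.605 in AT3G50180, and 0.92 and 0.47 in AT3G50190. AT3G50130 gave 217, 252 and 260 at 0 min against 107 to 159, and 288, 314 and 260 at 35 min against 123 to 177. AT3G50140 gave 134, 96 and 110 against 39 to 80, and AT3G50150 gave 134, 127 and 142 against 38 to 97. The first 2 were separate from the other arrays at both times and AT3G50150 at 0 min, and AT3G50200 belongs to the 8 genes with the replicate pattern, as do AT5G52680 and AT5G52710. These last 2 stand with AT5G52760 on chromosome 5, with differences at 0 min of 1.34, 1.26 and 0.79 and at 35 min of 0.79, 0.73 and 0.54. The measured genes between them were not members. They had differences of 1.23 and 0.13 in AT5G52690, 1.15 and 0.39 in AT5G52720, -0.01 and 0.11 in AT5G52740, and 0.31 and 0.02 in AT5G52750. The other neighbours were AT4G19720 with AT4G19730, and AT5G44770 with AT5G44820. The 2 probe sets of AT5G44820 gave differences of 0.88 and 0.77 at 0 min and of 0.64 and 0.76 at 35 min. No coordinates are given here, since the array table names no assembly.

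The nitrate response, taken as the mean over the 4 genotypes of 35 min minus 0 min, uses a contrast orthogonal to those of the rule. Members responded to nitrate in both directions. By limma at adjusted p under 0.05, 25 members rose and 25 fell, or 23.6% each. Over all probe sets tested 6.99% rose and 14.3% fell, and over the probe sets that could have been taken at the intensity minimum 9.69% rose and 19.6% fell. With each array centred on its median the members' counts were 28 and 16, so the share that rose was 63.6% in place of 50.0%. For all called probe sets that share was 56.5% in place of 32.8%. The median response was 0.01 over the members and -0.04 over all probe sets tested. The sign was the same in all 4 genotypes in 47 of the 50 (94.0%), and in 91.4% of all probe sets called. The call is made on the mean of these 4 responses, so nothing is read from that count.

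AT5G59490 had the strongest response of the members. In Col-0 it went from 1085, 894 and 526 to 5199, 5552 and 3004, in nlp6 from 727, 544 and 526 to 4884, 2558 and 2116, and in nlp7 from 545, 783 and 982 to 2369, 3513 and 4013. With the nlp6nlp7 values given above, the groups at 0 and 35 min did not overlap in any genotype, and the mean response was 2.16 ± 0.17 (SE) on the log2(intensity + 26) scale (limma adjusted p = 5.5e-09). The response was 2.43 for Col-0, 2.28 for nlp6, 2.07 for nlp7 and 1.86 for nlp6nlp7. The last value shares its arrays with the rule and is given without a test.

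AT3G11370 went from 395, 366 and 334 to 1265, 1579 and 1134 in Col-0, and from 663, 504 and 586 to 1537, 1275 and 1265 in nlp6nlp7. Its mean response was 1.38 ± 0.09 (SE), with a limma adjusted p of 3.2e-10. At 35 min the nlp6nlp7 mean of 1359 ± 154 (SD, n = 3) differed by less than the spread between replicates from the Col-0 mean of 1326 ± 229, and the single mutants lay lower, at 683 ± 243 in nlp6 and 870 ± 133 in nlp7. AT2G30670, one of the 8 genes with the replicate pattern, responded by 1.56 ± 0.28 (SE) at an adjusted p of 0.00022 by limma, with 1.91 in Col-0 and 0.88 in nlp6nlp7.

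Further members that rose were AT4G27654 by 1.17 ± 0.14 (SE), AT5G57785 by 1.04 ± 0.13 and AT1G55430 by 0.98 ± 0.08, with limma adjusted p from 4.4e-09 to 4.7e-06. In AT1G55430 the response was 0.99 for Col-0, 0.99 for nlp6, 1.06 for nlp7 and 0.88 for nlp6nlp7. Its arrays read 122, 100 and 113 in Col-0 at 0 min and 274, 241 and 227 at 35 min, beside 157, 166 and 165 and then 368, 255 and 354 in nlp6nlp7. A rise of about the same size was thus added to a higher starting level in the double mutant.

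The deepest fall among the members was that of AT1G05575. In Col-0 it went from 731, 878 and 605 to 237, 398 and 343, and in nlp6nlp7 from 1233, 1264 and 1123 to 422, 438 and 448. The response was -1.13 for Col-0, -1.29 for nlp6, -1.29 for nlp7 and -1.41 for nlp6nlp7, with a mean of -1.28 ± 0.09 (SE, limma adjusted p = 4.4e-10). After nitrate, nlp6nlp7 thus kept less than the Col-0 level from before nitrate while remaining above Col-0 at the same time.

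Of the 14 named members 7 fell and 0 rose, and of the 92 known by locus 25 rose and 18 fell, where 6.99% of all probe sets tested rose and 14.3% fell. The difference between these sets of members was not tested. SAL2 fell by 0.99 ± 0.09 (SE), STZ by 0.67 ± 0.06 and SWEET11 by 0.57 ± 0.10, with limma adjusted p of 2.0e-08, 4.3e-08 and 0.00024. EXPB1 fell by 0.54 ± 0.08, CML23 by 0.51 ± 0.10, NPF6.2 (AT2G26690) by 0.38 ± 0.09 and scpl40 by 0.33 ± 0.07, with limma adjusted p from 2.2e-05 to 0.0023. The response of STZ was -0.25 for Col-0, -0.60 for nlp6, -0.84 for nlp6nlp7 and the deepest for nlp7. Among the members known by locus, AT1G80180 fell by 0.94 ± 0.08, AT3G45710 by 0.90 ± 0.11, AT4G37850 by 0.78 ± 0.13 and AT5G61290 by 0.73 ± 0.18, with limma adjusted p from 1.2e-08 to 0.0056. AT4G37850 read 703, 818 and 631 in Col-0 at 0 min and 398, 595 and 396 at 35 min, beside 1392, 1222 and 1262 and then 712, 691 and 651 in nlp6nlp7.

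The 3 responding members without one sign throughout were AT1G67000, AT4G14980 and AT5G48110. AT1G67000 responded by 0.52 in Col-0 and 0.85 in nlp6 and by -0.00 in nlp7 and -0.05 in nlp6nlp7. AT4G14980 responded by -0.54 in Col-0, -0.56 in nlp6 and -0.46 in nlp6nlp7, and by 0.15 in nlp7. AT5G48110 responded by 0.05 in Col-0 and by -0.16, -0.23 and -0.51 in nlp6, nlp7 and nlp6nlp7.

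**Figure D4:**
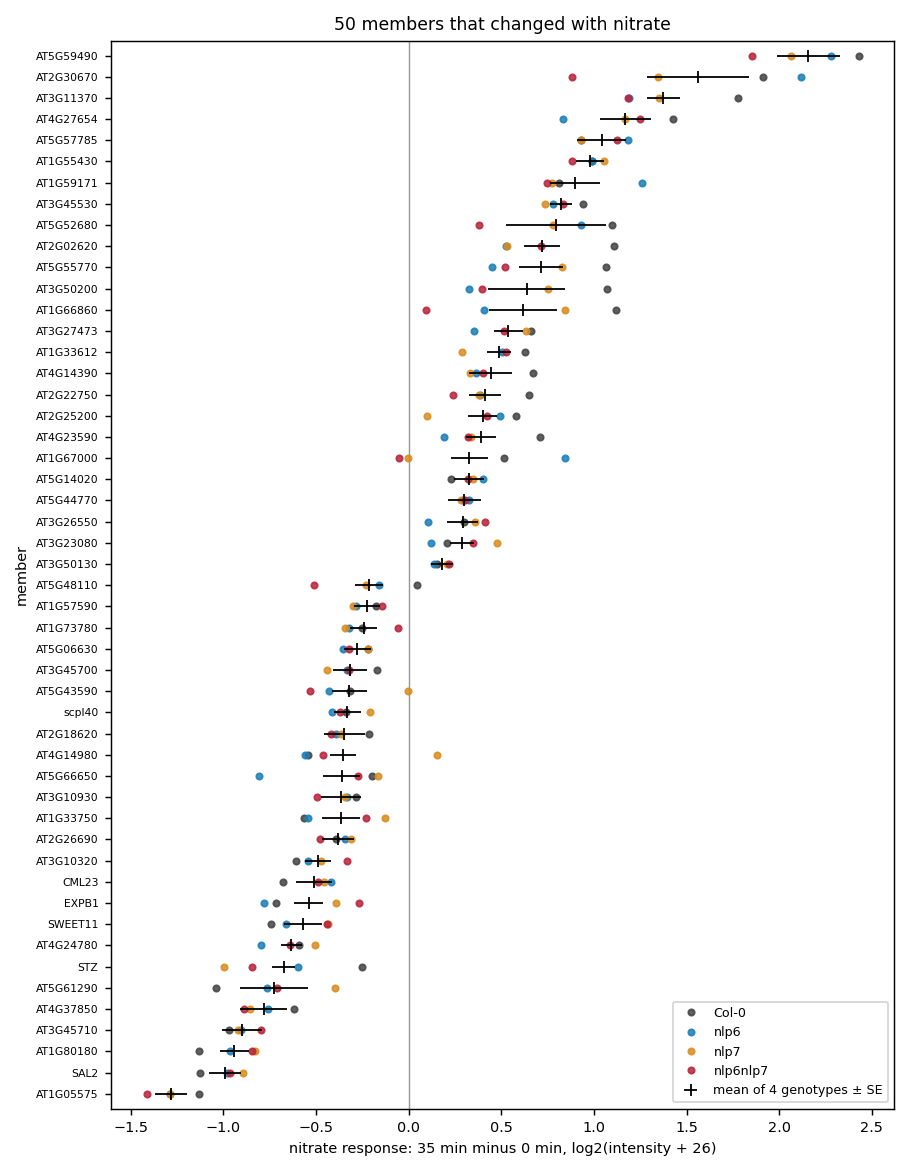
Nitrate response (35 min minus 0 min, log2(intensity + 26)) of the 50 members that changed, in each genotype (points) and as the mean of 4 genotypes with its standard error (black). The 4 genotypes lie on the same side of 0 in 47 members, from AT1G05575 at -1.28 to AT5G59490 at 2.16.

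The single mutants were compared with each other as the mean of both times, which the rule did not use. Members that differed were mostly higher in nlp7 than in nlp6, with 13 higher (12.3%) and 1 lower by limma at adjusted p under 0.05. Over all probe sets tested 2.67% were higher and 1.63% lower, and over the probe sets that could have been taken at the intensity minimum 3.86% were higher. The median of nlp7 minus nlp6 was 0.11 over the members and 0.01 over all. Centring the arrays gave 11 higher and 3 lower, so that 78.6% of the called members were higher in place of 92.9%, and 32.4% of all called probe sets in place of 62.1%. With the arrays of a genotype and replicate number averaged over both times, 6 were higher and 0 lower. Those 6 were NET1B, AT5G14650, AT1G67000, AT1G65010, AT1G80180 and AT5G08600, all called in every alternative tried.

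NET1B differed most, with 326, 249 and 336 in nlp7 at 0 min and 231, 309 and 259 at 35 min, against 148, 86 and 112 and then 152, 143 and 93 in nlp6. Its Col-0 arrays lay between them, at 270, 220 and 133 and then 214, 229 and 202. The nlp7 and nlp6 arrays did not overlap, and nlp7 was higher by 1.08 ± 0.14 (SE, limma adjusted p = 0.00031). Its relative NET1A was higher by 0.44 ± 0.09 (SE, limma adjusted p = 0.011), with 128, 165 and 161 and then 136, 185 and 161 in nlp7 against 114, 101 and 81 and then 118, 123 and 112 in nlp6. For both genes the order of the group means was nlp6, Col-0, nlp7 and nlp6nlp7 from lowest to highest at both times.

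AT5G14650 showed a different order, with Col-0 and nlp6 low together. It read 52, 59 and 37 for Col-0, 50, 56 and 67 for nlp6, 109, 118 and 116 for nlp7 and 163, 123 and 136 for nlp6nlp7 at 0 min. At 35 min it read 45, 61 and 71, then 47, 64 and 42, then 123, 155 and 80, then 200, 108 and 134 in the same order of genotypes. Both lines that carry the nlp7 mutation were above both lines that do not, although the rule itself asked for a high nlp6nlp7. What the rule did not use is that nlp7 was above nlp6 by 0.82 ± 0.14 (SE) and above Col-0 by 0.83 ± 0.14, with limma adjusted p of 0.0019 and 0.0030. AT5G43590 had the same direction, with nlp7 above nlp6 by 0.57 ± 0.13 (SE) and above Col-0 by 0.60 ± 0.13, at limma adjusted p of 0.018 and 0.023. With the arrays of a genotype and replicate number averaged over both times, AT5G43590 was called in neither comparison and AT5G14650 in both.

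AT1G67000, AT1G65010 and AT5G08600 were lowest in nlp6. AT1G65010 read 208, 171 and 203 and then 252, 198 and 265 in nlp6, against 340, 477 and 412 and then 344, 386 and 360 in nlp7, which was higher by 0.77 ± 0.11 (SE, limma adjusted p = 0.00066). AT1G67000 read 31, 35 and 24 in nlp6 at 0 min and 123, 93 and 97 in nlp7, and over both times nlp7 was higher by 0.79 ± 0.14 (SE, limma adjusted p = 0.0032). AT5G08600 was higher by 0.65 ± 0.13 (SE, limma adjusted p = 0.0075). The remaining 6 that were higher in nlp7, at 0.38 to 0.62, were AT1G10990, AT5G44820 through 1 of its probe sets, AT1G55430, AT1G80180, AT5G48110 and AT3G10320. The 1 member lower in nlp7 was AT4G14980, which read 239, 217 and 281 in nlp7 at 0 min against 521, 412 and 350 in nlp6, and which overlapped at 35 min.

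**Figure D5:**
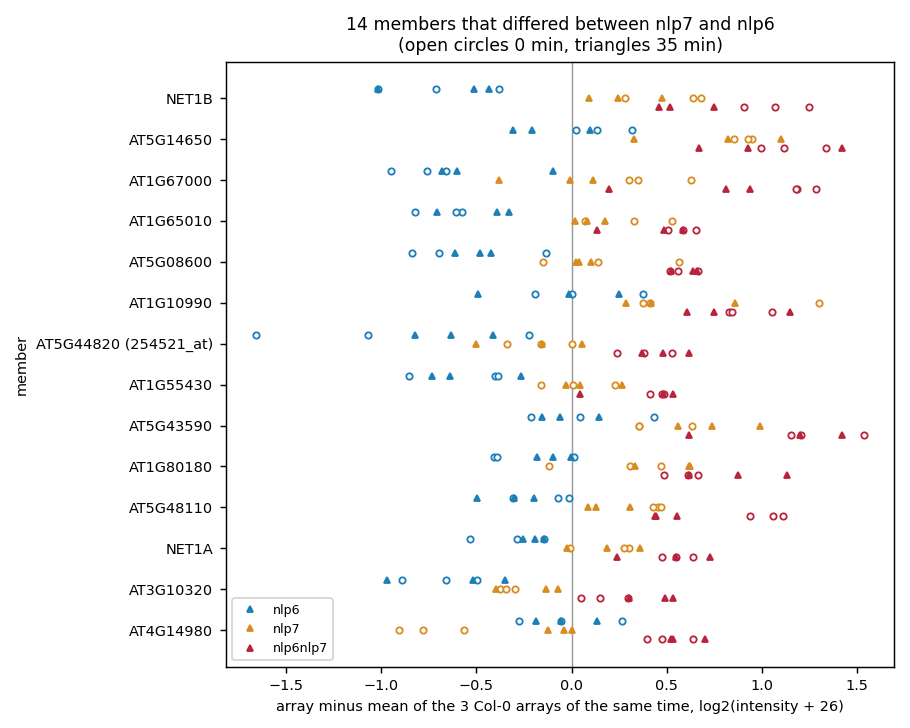
Arrays of nlp6, nlp7 and nlp6nlp7 for the 14 members that differed between nlp7 and nlp6, each minus the mean of the 3 Col-0 arrays of its time on the log2(intensity + 26) scale (open circles 0 min, triangles 35 min). The nlp7 arrays lie to the right of nlp6 in 13 members, NET1B at the top with a difference of 1.08, and to the left in AT4G14980.

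Against Col-0, few members changed in either single mutant. These 2 comparisons share the Col-0 arrays, and each also shares a mutant with the comparison above. In nlp6, 0 members were higher and 6 were lower (5.66%) by limma at adjusted p under 0.05, where 0.11% of all probe sets were higher and 0.449% lower, and 38 members (35.8%) had an unadjusted p under 0.05, as did 15.4% of all probe sets. The 6 were AT5G44820 through 1 of its probe sets at -0.80 ± 0.17 (SE), NET1B at -0.68 ± 0.14, AT3G11370 at -0.67 ± 0.13, AT3G10320 at -0.65 ± 0.10, AT1G65010 at -0.57 ± 0.11 and AT1G55430 at -0.55 ± 0.11, with limma adjusted p from 0.0062 to 0.038. AT3G10320 read 265, 262 and 275 in Col-0 at 0 min and 182, 132 and 160 in nlp6, then 149, 185 and 166 against 125, 72 and 108. The second probe set of AT5G44820 gave -0.26 ± 0.10 at an adjusted p of 0.23 by limma. None of the 6 was called when arrays of a genotype and replicate number were averaged over both times, 1 member was lower with only the arrays of Col-0, nlp6 and nlp7, and leaving out single arrays gave 1 to 8.

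In nlp7, 3 members were higher than in Col-0 (2.83%) and 1 was lower by limma, where 0.735% of all probe sets were higher and 0.947% lower. An unadjusted p under 0.05 was found in 22 members (20.8%) and in 14.1% of all probe sets. Besides AT5G14650 and AT5G43590 the higher member was AT3G23080, with 192, 129 and 170 and then 275, 247 and 192 in nlp7 against 122, 131 and 116 and then 146, 146 and 146 in Col-0, higher by 0.47 ± 0.09 (SE, limma adjusted p = 0.0092). AT4G14980 was lower by -0.40 ± 0.10 at an adjusted p of 0.048 by limma, a call that most alternatives lost. With same-numbered arrays averaged over both times AT5G14650 alone was called. Over all members the median was -0.14 for nlp6 minus Col-0 and -0.05 for nlp7 minus Col-0, and over all probe sets tested 0.02 and 0.03.

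The size of the nitrate response did not differ detectably between a single mutant and Col-0 for any member. For nlp7 against Col-0, 0 members were called by limma, 4 (3.77%, against 6.07% of all probe sets) had an unadjusted p under 0.05 and the smallest adjusted p was 0.11. For nlp6 against Col-0, 0 were called, 5 (4.72%, against 5.02% of all) had an unadjusted p under 0.05 and the smallest adjusted p was 0.96. Of all probe sets tested 0.264% and 0.00881% were called. The differences of response ran from -0.74 to 0.69 for nlp7 and from -1.12 to 0.76 for nlp6, and with so few calls no member is said to respond alike in these lines.

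Of the gene lists, 2 hold members, those named for cell wall proteins and for nitrogen uptake and assimilation. Lists were matched by symbol or synonym, so genes of these families known by locus alone can be missing. A list name also need not describe every gene in it. Of 30 genes measured on the cell wall list, the 2 beta expansins were the ones past 0.5 at both times. The median difference over the 30 was 0.07 at 0 min and 0.03 at 35 min. By limma, 5 of the 30 rose and 10 fell with nitrate. The nitrogen list had 12 measured genes, among them NRT2.5, GTR1 and GTR2, and NPF6.2 was the one past 0.5 at both times. Over the 12 the median difference was 0.09 and -0.13. With nitrate 2 of them rose, GTR1 and AT1G59740, and 2 fell, NRT2.5 and NPF6.2. In all, 3 of the 155 measured genes of 29 lists are members, and 8 of the lists had no gene measured under a name. Without the intensity minimum and the exceptions of the rule, further genes were past 0.5 at both times. They were 2 of the 22 on the beta-glucosidase list and 1 of the 12 on the list named pathogenesis related. Over all probe sets tested 2.37% passed 0.5 at both times. That share likewise uses no intensity minimum and no exceptions, so it is not a background for the count of members.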

How the data were processed

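Root RNA was hybridised to 24 ATH1 arrays. The deposited values are intensities per probe set, whole numbers on a linear scale, already scaled by the authors: with 2% trimmed at both ends, array means were 500.1 to 500.5. How probes were summarised is not given in the sources used. Of 22776 probe sets, 62 controls were left out and 22714 tested without a filter. Genes were named from the platform's probe table and RefSeq's TAIR10.1 symbols, synonyms and gene order. All 105 loci were found there, and 93 probe sets carry the locus as their symbol.

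From the deposited intensities, log2(intensity + 26) was computed, and a model of the 8 group means was fitted to all 24 arrays in limma 3.58.1 (R 4.3.3), with 16 residual degrees of freedom. Fold changes are on that scale and understate the change of dim genes. The 6 contrasts tested are orthogonal to the rule's 2 contrasts, two-sided, and adjusted by Benjamini-Hochberg over the 22714. The script was tested on simulated data. Members and lists were chosen with earlier results of these data known. Members could be named freely. Full values were given for the 12 with the largest smaller difference, the 6 highest and 6 lowest called per test, the 3 on each side of the threshold, the 3 brightest, neighbours and members of the gene lists, with further examples chosen after values were seen. Same-numbered samples were not paired across genotypes in the main model, and their correlations are given in the text. Alternatives covered scaling, pseudocount, dim probe sets, variance model, replicate block and arrays left out. Tables and plots were made in Python 3.11.15 (matplotlib 3.10.9, pandas 2.3.3, numpy 2.4.6). Arrays give no depth, and their number limits the precision. No column was left out.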

Additional observations from a re-analysis of the deposited data

How the results depend on the processing

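The rule found 64 probe sets, all of them members, when each array was centred on its median, which moved the difference of all probe sets by -0.08 at 0 min and -0.05 at 35 min, and 45, all members, with a pseudocount at the 40th percentile. It found 81 with quantile normalization (78 shared), 138 with a pseudocount at the 5th percentile (106 shared) and 104 with the minimum in each nlp6nlp7 group. The members' median difference at 0 min was 0.63 with centring and 0.55 with the higher pseudocount, which also gave 0.51 at 35 min. Of the nitrate response, the fallen members numbered 16 with centring, and leaving out single arrays gave 22 to 27 risen and 23 to 26 fallen. The 50 calls all remained with a replicate block and with a replicate block within genotype, which was chosen after seeing the data, and 37 remained in all 34 alternatives. For nlp7 minus nlp6, members lower numbered 4 with the replicate block, 3 with centring, 2 with quantile normalization, the higher pseudocount, a trended variance or without the dimmest 25%, and 0 with array weights, with only 3 genotypes, without nlp7 replicate 1 and with the replicate block within genotype. That last setting left 6 higher, and single arrays left out gave 9 to 14 higher and 0 to 3 lower. For nlp7 minus Col-0, 1 was higher with the block within genotype, and the lower members were 3 with centring or trend, 2 with array weights or without the dimmest 25%, and 0 with the replicate block, the lower pseudocount, only 3 genotypes, the block within genotype or without nlp7 replicate 1. Single arrays left out gave 2 to 5 higher and 0 to 2 lower. For nlp6 minus Col-0, 1 was lower with only 3 genotypes and 0 with the block within genotype. Single arrays left out gave 0 to 1 higher and 1 to 8 lower. No named call turned its direction, and response differences stayed at 0 calls in all of their alternatives. Over the members, replicate numbers correlated across genotypes at no more than 0.15, while the 8 genes with the replicate pattern varied by number in several genotypes. Whether same-numbered samples share a batch is not given in the labels and was not tested. The causes were not tested.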
